A study of Mus musculus with 12 samples.

Results

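The replication-dependent histone genes are the clustered genes that supply histones H1, H2A, H2B, H3 and H4 to newly copied DNA. They were taken as every gene of the deposited table whose symbol starts with Hist1h, Hist2h, Hist3h or Hist4h, with each Ensembl identifier counted once. This gave 61 of 23764 genes: 5 of H1, 18 of H2A, 18 of H2B, 7 of H3 and 13 of H4. Of these, 35 had a normalized count, averaged over a group's libraries, of 10 or more in any of the 6 groups (5 H1, 16 H2A, 8 H2B, 2 H3 and 4 H4), and 19 reached 50. In the reference annotation Hist1h2al is a processed pseudogene and the identifier that the file calls Hist2h2bb is a lincRNA; both met the rule on symbols, are among the tested genes and are counted with H2A and H2B. The 35 were tested among 14715 genes of the table that passed the same minimum. The other 26 were under 10 in every group: Hist1h2ba, Hist1h2bb, Hist1h2bf, Hist1h2bh, Hist1h2bj, Hist1h2bl, Hist1h2bm, Hist1h2bn, Hist1h2bp, Hist1h3a, Hist1h3b, Hist1h3c, Hist1h3e, Hist1h4a, Hist1h4b, Hist1h4c, Hist1h4d, Hist1h4f, Hist1h4j, Hist1h4k, Hist1h4m, Hist1h4n, Hist2h2ab, Hist2h2ac, Hist2h3b and Hist3h2ba.

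RNA was measured in RAW264.7 cells, an immortalized mouse macrophage line (labelled Balb/c) that can form osteoclast-like cells when given RANKL, the cytokine that drives osteoclast formation. Cells of all 6 groups had RPMI 1640 or MEM-alpha medium with 10% serum and RANKL (the labels give 100 ug/ml). They received either MEM-alpha as vehicle or the culture supernatant of Lactobacillus reuteri, a gut bacterium, and were collected at day 1, 3 or 5. Each arm had 2 libraries per day, numbered 1 and 2, so 12 in all. The labels do not say whether the libraries came from separate cultures, so p-values speak only of how far these libraries lie apart, a spread that can be technical.

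Histone genes of this kind are transcribed mainly in S phase, when DNA is copied, under the coactivator Npat. Their mRNAs carry no introns and normally end in a conserved stem-loop instead of a poly(A) tail, and the stem-loop binding protein Slbp directs their 3′ processing and their stability. Some of these genes also give polyadenylated mRNAs, above all in cells that leave the cell cycle and differentiate, and libraries that select poly(A) RNA recover the stem-loop form poorly. The labels name a TruSeq RNA kit and 1 ug of total RNA as input but not the selection step.

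The stem-loop is shown first because it sets these mRNAs apart from other mRNAs. The pattern GGNNCTTTTNANNNCC was searched on the coding strand after the stop codon of the annotated transcript, and was found in 38 of the 59 genes with a transcript of that build (3 of 5 H1, 11 of 18 H2A, 7 of 16 H2B, 6 of 7 H3 and 11 of 13 H4). These counts follow the annotation: of the 21 without a match, 11 have under 16 bases after the stop codon, too few to hold one, and 2 have no coding sequence. Capitals mark the match within 30 bases of transcript sequence, read from GENCODE transcripts on GRCm38. All 9 genes below are named later or stand for a form of the stem:
Hist1h2ao: aaaaaaaGGCTCTTTTCAGAGCCatccaca
Hist1h2ag: caacaaaGGCTCTTTTCAGAGCCacctaac
Hist1h2ac: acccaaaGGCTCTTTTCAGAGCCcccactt
Hist2h2aa1: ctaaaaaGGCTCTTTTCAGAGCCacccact
Hist1h1c: tccaaaaGGCTCTTTTCAGAGCCaccactc
Hist1h2bg: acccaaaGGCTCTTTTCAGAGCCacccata
Hist2h2ac: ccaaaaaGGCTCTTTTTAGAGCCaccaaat
Hist1h4i: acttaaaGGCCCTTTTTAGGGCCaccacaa
Hist4h4: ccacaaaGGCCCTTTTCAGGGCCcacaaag
The annotated transcript stops 31 bases after the stem-loop in Hist1h2ao and 23 bases after it in Hist1h2ag. It runs on for 840 bases in Hist1h1c, 2010 bases in Hist1h2ac and 2445 bases in Hist4h4.

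The H2A genes are near copies of each other, which bears on how their reads can be counted. The first 90 coding bases are printed to show this, with capitals at each base that differs from Hist1h2ao:
Hist1h2ao: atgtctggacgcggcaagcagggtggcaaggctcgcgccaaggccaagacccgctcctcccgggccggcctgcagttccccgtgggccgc
Hist1h2ap: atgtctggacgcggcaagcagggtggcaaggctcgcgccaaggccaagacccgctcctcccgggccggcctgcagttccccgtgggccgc
Hist1h2ag: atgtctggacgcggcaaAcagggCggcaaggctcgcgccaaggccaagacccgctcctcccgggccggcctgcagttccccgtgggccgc
Hist1h2ac: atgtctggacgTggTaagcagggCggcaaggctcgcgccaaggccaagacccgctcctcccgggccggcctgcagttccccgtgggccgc
Hist2h2aa1: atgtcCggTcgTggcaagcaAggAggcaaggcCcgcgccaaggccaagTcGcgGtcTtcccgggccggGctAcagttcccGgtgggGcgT
Hist3h2a: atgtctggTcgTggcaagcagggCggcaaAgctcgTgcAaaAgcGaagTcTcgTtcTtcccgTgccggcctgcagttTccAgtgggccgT
Over the 390 coding bases, identity to Hist1h2ao was 100% for Hist1h2ap, 99.2% for Hist1h2ag, 98.7% for Hist1h2ac, 91.5% for Hist2h2aa1 and 88.7% for Hist3h2a. Genes were placed in 1 set where at least 50% of the 50-base words of the gene with fewer of them were also found in the other. The 35 tested genes then fell into 20 sets. A set of 11 H2A genes (Hist1h2ab, Hist1h2ac, Hist1h2ad, Hist1h2ae, Hist1h2af, Hist1h2ag, Hist1h2ah, Hist1h2ai, Hist1h2an, Hist1h2ao and Hist1h2ap) is called the near-identical H2A genes from here on. Reads of such copies can be shared or split by the counting, and the authors' handling of them is not given in the sources used here. Hist1h2ao and Hist1h2ap had nearly equal reads in every library, for instance 477 and 487 in vehicle number 1 of day 1. The value of each single copy is thus uncertain and their number is not a number of independent results. A read counted for several copies enters a sum over them more than once.

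Of the 59 genes with an annotated location on GRCm38, 46 lie on chromosome 13, 10 on chromosome 3, 2 on chromosome 11 and 1 on chromosome 6. Hist1h2ao is at chr13:21810465-21810944 on the plus strand, Hist1h2ag at chr13:22042460-22042944 on the minus strand and Hist1h1c at chr13:23738808-23740367 on the plus strand, all protein-coding. RefSeq held promoters (build GRCm38.p6) of 56 of the 61 genes. The 250 bases before the RefSeq start of 3 of them are printed because these genes lead the results for H2A and H1. Capitals mark CCAAT, on either strand, in all 3, and in Hist1h1c also AAACACA, a motif known from H1 promoters.
Hist1h2ao, chr13:21810117-21810366, plus strand: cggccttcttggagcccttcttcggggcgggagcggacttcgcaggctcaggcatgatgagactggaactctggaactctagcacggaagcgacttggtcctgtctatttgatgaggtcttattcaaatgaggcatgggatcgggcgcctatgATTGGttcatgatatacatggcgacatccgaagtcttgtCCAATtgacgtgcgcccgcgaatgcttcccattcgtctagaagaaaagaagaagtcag
Hist1h2ag, chr13:22042950-22043199, minus strand: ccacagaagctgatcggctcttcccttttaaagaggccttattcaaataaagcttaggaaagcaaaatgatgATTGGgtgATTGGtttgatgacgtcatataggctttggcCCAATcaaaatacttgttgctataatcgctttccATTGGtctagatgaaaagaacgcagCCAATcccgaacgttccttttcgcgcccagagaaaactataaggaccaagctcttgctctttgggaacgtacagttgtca
Hist1h1c, chr13:23738557-23738806, plus strand: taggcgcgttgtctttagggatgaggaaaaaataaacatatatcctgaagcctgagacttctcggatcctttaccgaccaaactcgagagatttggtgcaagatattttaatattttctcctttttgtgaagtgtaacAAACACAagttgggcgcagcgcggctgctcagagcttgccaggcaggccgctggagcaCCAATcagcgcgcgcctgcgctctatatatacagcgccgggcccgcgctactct

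Searched on both strands of these windows, CCAAT was present in 45 of 56 histone promoters (80.4%) against 34.5% of 27025 promoters of the genome. It was in 5 of 5 H1, 17 of 17 H2A and 16 of 16 H2B promoters, but in 4 of 6 of H3 and 3 of 12 of H4. TATAAA was in 25 (44.6%) against 13.0% of all promoters. The octamer ATTTGCAT was in 12 (21.4%), 6 of H2A and 6 of H2B, against 1.6%, and AAACACA in 7 (12.5%), 4 of them H1, against 6.2%. No motif contains another, although matches of TATAAA and AAACACA can overlap at AAA, and a match describes the letters of the window only. H2A and H2B genes often stand head to head: 11 such pairs had starts within 400 bases.

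Recovered library sizes ran from 8071160 to 16781080 reads, and the authors' scaling gave every library the same normalized total. Normalized counts below are on that scale. The 4 number 2 libraries of days 3 and 5 stood apart from the rest: mitochondrial genes took 25.7% to 30.6% of their total and Malat1, a nuclear non-coding RNA, 8.15% to 13.97%, against 3.64% to 5.97% and 0.218% to 0.489% in the other 8. The median of all tested genes was lower in number 2 than in number 1 by log2 differences from -1.71 to -0.92 at those days, and was within 0.02 at day 1. A list of macrophage markers was abundant in all 12 libraries (summed normalized count 24381 to 342128), and fibroblast, T cell, B cell and epithelial lists each summed to at most 15.5. Osteoclast markers summed to 2285 to 2633 at day 1, at day 3 to 11213 and 8399 in the number 1 libraries against 3128 and 5319 in number 2 (vehicle and treated), and at day 5, in the opposite order, to 2697 and 2504 in number 1 against 15183 and 17134 in number 2. Because of these differences, treatment is given within each library number beside the fits, and a fit without the 4 libraries (8 libraries) beside the one with all 12. In bulk RNA, fewer cells in S phase and less histone RNA per cell cannot be told apart.

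Summed over genes, the histone genes made up 0.0134% to 0.0608% of reads. In each library H2A genes gave most of the summed histone signal, for instance 3246 of 4177 normalized counts in vehicle number 1 at day 5. Both totals can hold a read of near-identical copies more than once: Hist1h2ao and Hist1h2ap alone held 28.8% and 29.3% of histone reads in that library. The H2A share without such repeats is not known. Levels of different genes are not compared further, since the counts are not per length.

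**Figure D1:**
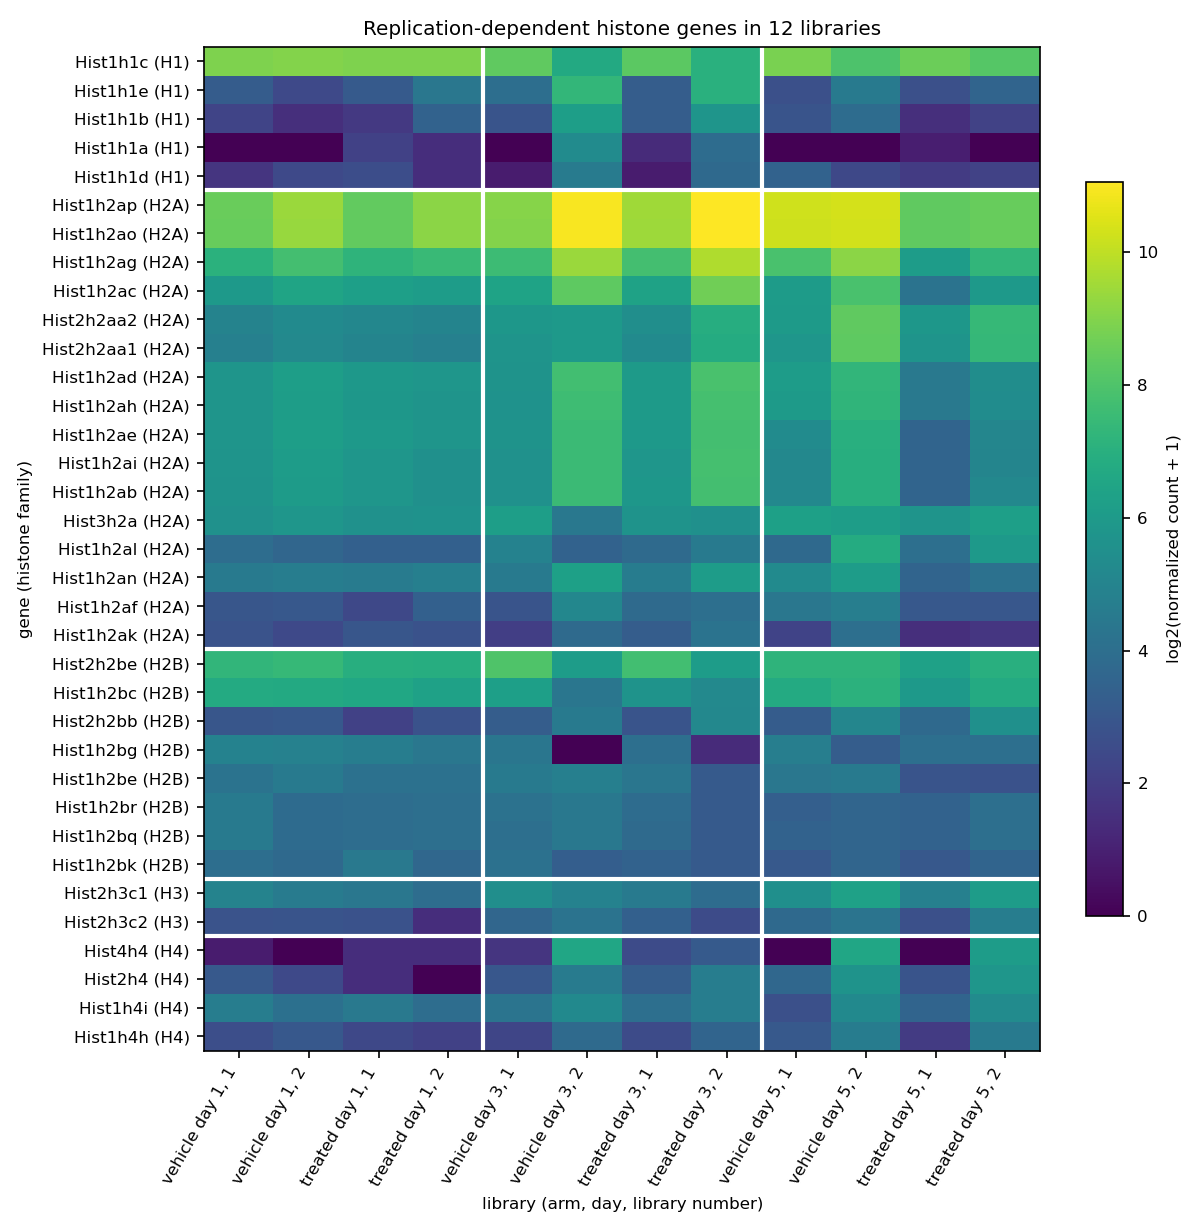
Heat map of log2(normalized count + 1) for the 35 tested histone genes (vertical axis, by family) in the 12 libraries (horizontal axis, by arm, day and library number). The 11 near-identical H2A genes are lower in both treated libraries of day 5 than in both vehicle libraries of that day, and Hist1h1c is lowest in the number 2 libraries of days 3 and 5.

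Treatment at day 5 asked whether the supernatant changed RNA levels late in the RANKL course. In both library numbers the near-identical H2A genes, which encode core histone H2A, were lower in the treated library, together 3.61-fold in number 1 and 3.62-fold in number 2. The linker histone Hist1h1c and the H2B genes as a group showed no such shift. The fit over all 12 libraries (limma, Benjamini-Hochberg adjustment over 14715 genes) called no histone gene and no gene at all, with 4 histone genes and 51 of all genes at an unadjusted p under 0.05. The fit with 8 libraries called 6 histone genes, all lower.

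Summed over the near-identical H2A genes, the normalized counts at day 5 were 3030.1 and 4135.4 in vehicle (numbers 1 and 2) and 839.5 and 1142.5 in treated. Both treated sums were also below the 4 sums of day 1 (1212.6 to 2025.0), and both vehicle sums were above them. Most of these sums came from Hist1h2ao and Hist1h2ap, whose shared reads can enter more than once (1200.8 and 1224.7 in vehicle number 1 of day 5). In that library Hist1h2af, Hist1h2ag, Hist1h2an, Hist1h2ao and Hist1h2ap were above every day 1 library. Hist1h2ac, Hist1h2ad and Hist1h2ah were within the day 1 range, and Hist1h2ab, Hist1h2ae and Hist1h2ai were below it. The log2 difference within a number ran over the 11 genes from -1.88 to -1.35 (median -1.72) in number 1 and from -2.0 to -1.70 (median -1.87) in number 2. Over all tested genes the medians were -0.09 and 0.23, and over the 24 histone genes outside this set -0.40 and -0.15. The difference was of similar size in numbers 1 and 2. Osteoclast markers at day 5 differed more than 5-fold between the numbers, and their relation to the H2A difference was not tested.

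Hist1h2ao had normalized counts of 1200.8 and 1271.6 in vehicle at day 5 (1236 ± 50.05, SD, n = 2) and 327.6 and 360.3 in treated (344 ± 23.1, SD, n = 2), from 1305, 900, 357 and 304 reads. At day 1 it had 361.3 and 665.2 in vehicle and 336.9 and 562.9 in treated. At day 3 it had 518.8 and 1982.8 in vehicle and 700.4 and 2127.4 in treated. The arms overlapped at days 1 and 3 and were apart at day 5, where the ratio of vehicle to treated was 3.67 in number 1 and 3.53 in number 2. Its log2 difference at day 5 was -1.84 (SE 0.77, unadjusted p = 0.0407, adjusted p = 1) in the limma fit over 12 libraries. Hist1h2ap, whose transcript shares most of its sequence with Hist1h2ao, had 1224.7 and 1297.0 in vehicle and 332.2 and 360.3 in treated at day 5, after 368.8, 671.4, 341.2 and 567.2 at day 1 and 525.9, 2003.4, 706.7 and 2143.1 at day 3 (vehicle numbers 1 and 2, then treated 1 and 2). Its values tracked those of Hist1h2ao in each library.

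Hist1h2ag had 237.4 and 569.4 in vehicle and 68.8 and 155.2 in treated at day 5. Earlier it had 134.1 and 217.2 in vehicle and 144.4 and 182.2 in treated at day 1, and 192.2 and 677.6 against 213.6 and 851.9 at day 3. The number 2 library was the higher of each arm at day 5, yet the higher treated value was below the lower vehicle value. Hist1h2ac had 66.3 and 233.1 in vehicle and 17.4 and 61.6 in treated at day 5. Its values were 62.9 and 88.0 against 75.6 and 69.3 at day 1, and 83.6 and 319.0 against 83.0 and 401.5 at day 3. Its log2 difference at day 5 was -1.87 (SE 0.30, adjusted p = 0.0361) in the limma fit with 8 libraries.

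The other near-identical H2A genes had the same order at day 5. Hist1h2ad had 68.1 and 154.0 in vehicle and 21.1 and 41.5 in treated, after 53.0, 71.8, 59.3 and 54.8 at day 1 and 50, 207.2, 65.0 and 234.6 at day 3 (vehicle numbers 1 and 2, then treated 1 and 2). Hist1h2ah had 64.4 and 149.8 against 21.1 and 40.3, after 53.0, 70.9, 56.7 and 51.3 at day 1 and 49.2, 195.5, 65.0 and 220.5 at day 3. In both genes the treated libraries of day 5 held the lowest values of all 12. Hist1h2ae had 39.6 and 124.3 against 11 and 33.2, after 53.8, 73.6, 61 and 53.0 at day 1 and 50, 188.1, 61.8 and 218.9 at day 3. Hist1h2ai had 35.0 and 121.5 against 11 and 32.0, after 51.5, 68.2, 55.0 and 46.2 at day 1 and 46.9, 186.7, 54.8 and 222.0 at day 3. In these, vehicle number 1 at day 5 was itself below every day 1 library. Hist1h2ab had 35.0 and 120.1 against 11 and 34.4, after 50.7, 66.4, 55.0 and 46.2 at day 1 and 46.9, 188.1, 56.3 and 215.7 at day 3. Hist1h2an had 38.6 and 69.2 against 11 and 16.6, after 22.7, 25.1, 23.2 and 26.5 at day 1 and 21.9, 76.4, 24.3 and 69.3 at day 3. Its treated values at day 5 were the only ones under 20 among its 12 libraries.

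Counted over single genes, both treated libraries were below both vehicle libraries at day 5 in 17 of 35 histone genes (48.6%), against 3.88% of all tested genes. The 17 belong to 7 sequence sets: the 11 near-identical H2A genes, Hist1h2ak, the H1 genes Hist1h1b and Hist1h1d, and the H2B genes Hist1h2bc, Hist1h2be and Hist2h2be. No histone gene was higher in both, against 3.36% of all genes. A lower value in both within-number comparisons was seen in 23 (65.7%) against 21.8%, and a higher value in 3 (8.6%) against 26.8%. By family, the median log2 difference in numbers 1 and 2 was -1.58 and -1.86 for H2A (15 of 16 lower in each), -0.25 and -0.20 for H1, -0.35 and 0.17 for H2B, -0.88 and 0.08 for H3 and -0.40 and -0.001 for H4. Only the H2A median was past -1 in both numbers.

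**Figure D2:**
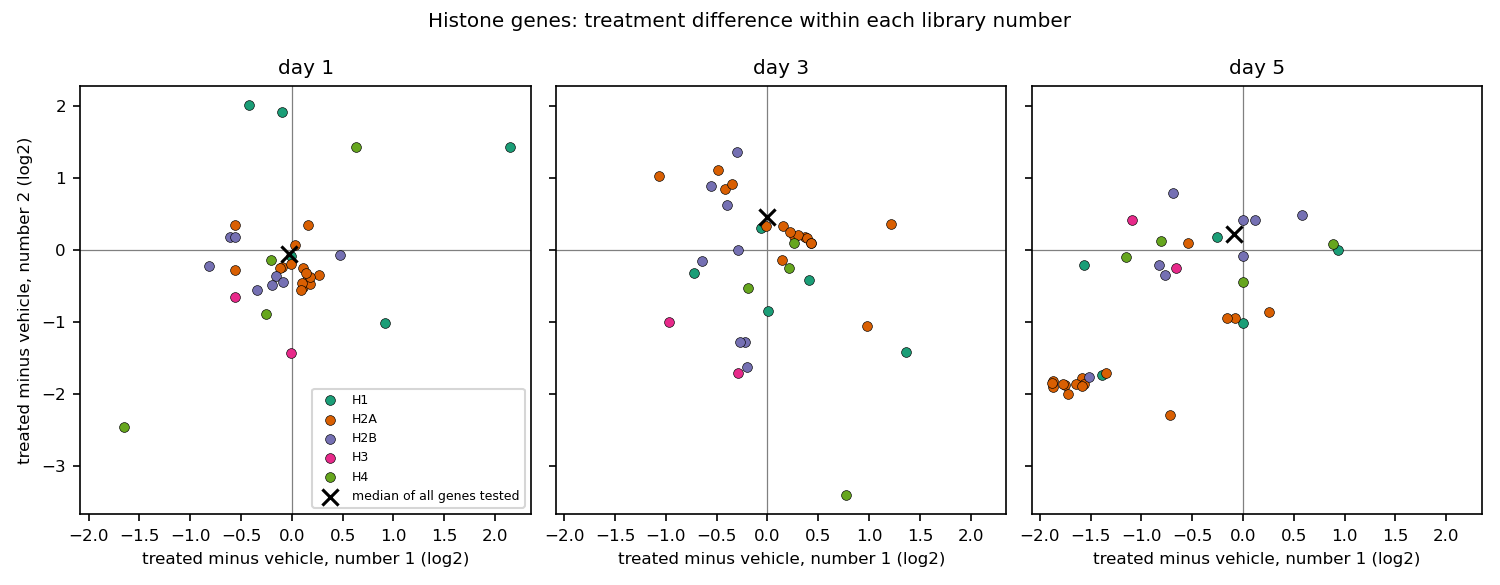
Treated minus vehicle (log2) within the number 1 libraries (horizontal axis) and within the number 2 libraries (vertical axis) for the 35 histone genes at days 1, 3 and 5, coloured by family, with a cross at the median of all tested genes. At day 5 the 11 near-identical H2A genes lie together, from -1.88 to -1.35 on the horizontal and from -2.0 to -1.70 on the vertical axis, away from the cross.

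With 8 libraries, limma called 6 histone genes lower at day 5 (background 3.27% of all tested genes lower): Hist1h2ac, Hist1h2ae (-1.76, SE 0.31, adjusted p = 0.0447), Hist1h2an (-1.72, adjusted p = 0.0422), Hist1h2ad (-1.64, adjusted p = 0.0446), Hist1h2ah (-1.57, adjusted p = 0.0476) and Hist2h2be (-0.83, SE 0.16, adjusted p = 0.0489). The count is thus made of 5 H2A genes of 1 sequence set and 1 H2B gene, where 5.81% of all genes were called in either direction. This fit compares single libraries at day 5 and takes their spread from day 1. None of the 6 calls, and none of the 855 calls over all genes, was left when any 1 of the 4 day 1 libraries was taken out. Each fit without 1 of them has 1 residual degree of freedom, so the loss is not particular to histone genes. A fit over 12 libraries with a term for library number within each day compares the arms within numbers. It called 17 genes (0.116%), 4 of them lower (0.0272%), and those 4 were Hist1h2ap (-1.86, SE 0.17, adjusted p = 0.0137), Hist1h2ao (-1.84, SE 0.18, adjusted p = 0.0137), Hist1h2ag (-1.82, SE 0.21, adjusted p = 0.0229) and Hist1h2ac (-1.88, SE 0.27, adjusted p = 0.0498). All 4 are of the near-identical set, and that fit treats the library numbers as pairs, which the labels do not state.

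Outside the near-identical set, Hist2h2aa1, Hist2h2aa2 and the pseudogene Hist1h2al, which form a second sequence set, differed between library numbers more than between arms at day 5. Hist2h2aa1 had 55.2 and 320.7 in vehicle and 52.3 and 165.9 in treated, after 27.3, 35.9, 30.9 and 27.4 at day 1 and 51.6, 61.7, 38.3 and 111.8 at day 3. Hist2h2aa2 had 63.5 and 325.0 against 56.9 and 168.3, after 30.3, 38.6, 33.5 and 30.8 at day 1 and 56.3, 61.7, 43.8 and 118.1 at day 3. Hist1h2al had 12.9 and 110.2 against 15.6 and 60.4, after 14.4, 11.7, 9.5 and 9.4 at day 1 and 28.9, 10.3, 13.3 and 22 at day 3. The number 1 libraries of both arms were close to each other in these 3, and the arms overlapped. Hist3h2a, an H2A gene of the small cluster on chromosome 11, had 76.4 and 70.6 against 52.3 and 75.8 at day 5, after 47.7, 55.7, 47.3 and 48.8 at day 1 and 71.9, 20.6, 50.9 and 45.7 at day 3. Its arms overlapped at all 3 days.

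Among H2B genes, which encode the partner of H2A, Hist1h2bc had 108.6 and 135.6 in vehicle and 63.3 and 106.7 in treated at day 5, after 106.8, 103.2, 95.4 and 80.4 at day 1 and 75.0, 19.1, 50.9 and 36.2 at day 3. Hist2h2be had 144.5 and 144.1 against 80.7 and 124.4 at day 5, after 153.7, 170.6, 121.2 and 116.3 at day 1 and 254.7, 69.1, 208.2 and 69.3 at day 3. In both genes the treated libraries were the lower ones at days 1 and 5, and the arms overlapped at day 3. Hist1h2be was lower in treated at all 3 days: 17.4 and 22.4 against 16.3 and 16.3 at day 1, 22.7 and 26.5 against 19.6 and 7.9 at day 3, and 20.2 and 22.6 against 6.4 and 5.9 at day 5. Its log2 difference at day 5 was -1.64 (SE 0.60, unadjusted p = 0.0244, adjusted p = 1) over 12 libraries. Hist1h2bq, the head-to-head partner of Hist1h2ao, had 10.1 and 11.3 in vehicle and 10.1 and 15.4 in treated at day 5, from 8 to 13 reads. It was not lower in treated, with a log2 difference of 0.21 (SE 0.61, adjusted p = 1) over 12 libraries, beside -1.84 for Hist1h2ao. Hist1h2bq shares 97.3% of its 50-base words with Hist1h2br, the head-to-head partner of Hist1h2ap, so its value is not specific to that copy. The difference between Hist1h2ao and Hist1h2bq was not tested. Hist1h2bj, the partner of Hist1h2ag, had 0.0 to 5.7 over the 12 libraries, close to what 3 reads are worth (2.27 to 4.72).

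The H1 genes encode the linker histone. Hist1h1c had 482.4 and 518.8 in vehicle and 481.2 and 489.3 in treated at day 1, 324.3 and 105.8 against 310.7 and 130.7 at day 3, and 458.2 and 251.5 against 384.5 and 284.4 at day 5. At each day the arms were close within a library number. Hist1h1e had 8.3, 4.5, 7.7 and 19.7 at day 1, 14.8 and 158.7 against 8.6 and 127.5 at day 3, and 5.5 and 22.6 against 5.5 and 10.7 at day 5. It was above 100 only in the number 2 libraries of day 3. Hist1h1b was likewise 72.0 and 53.5 in those 2 libraries and at most 14.1 in the other 10.

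Of H3, only 2 genes were tested, and they share sequence. Hist2h3c1, which encodes core histone H3, had 29.5 and 23.3 in vehicle and 19.8 and 14.5 in treated at day 1, 43.8 and 29.4 against 21.9 and 14.2 at day 3, and 44.2 and 80.5 against 27.5 and 67.5 at day 5. Treated was below vehicle within each number at all 3 days, and the arms overlapped at day 5 only. Of H4, 4 genes were tested and none reached a group mean of 50. Hist4h4, a single gene on chromosome 6, had 0.8 and 0.0 in vehicle and 1.7 and 1.7 in treated at day 1. It had 2.3 and 92.6 against 4.7 and 7.9 at day 3, and 0.0 and 91.8 against 0.0 and 67.5 at day 5. A count of 0 allows up to 3 reads, a normalized count of 2.76 in vehicle number 1 of day 5 and 2.75 in treated number 1, so its number 2 values of day 5 were above that limit while its number 1 values were not.

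**Figure D3:**
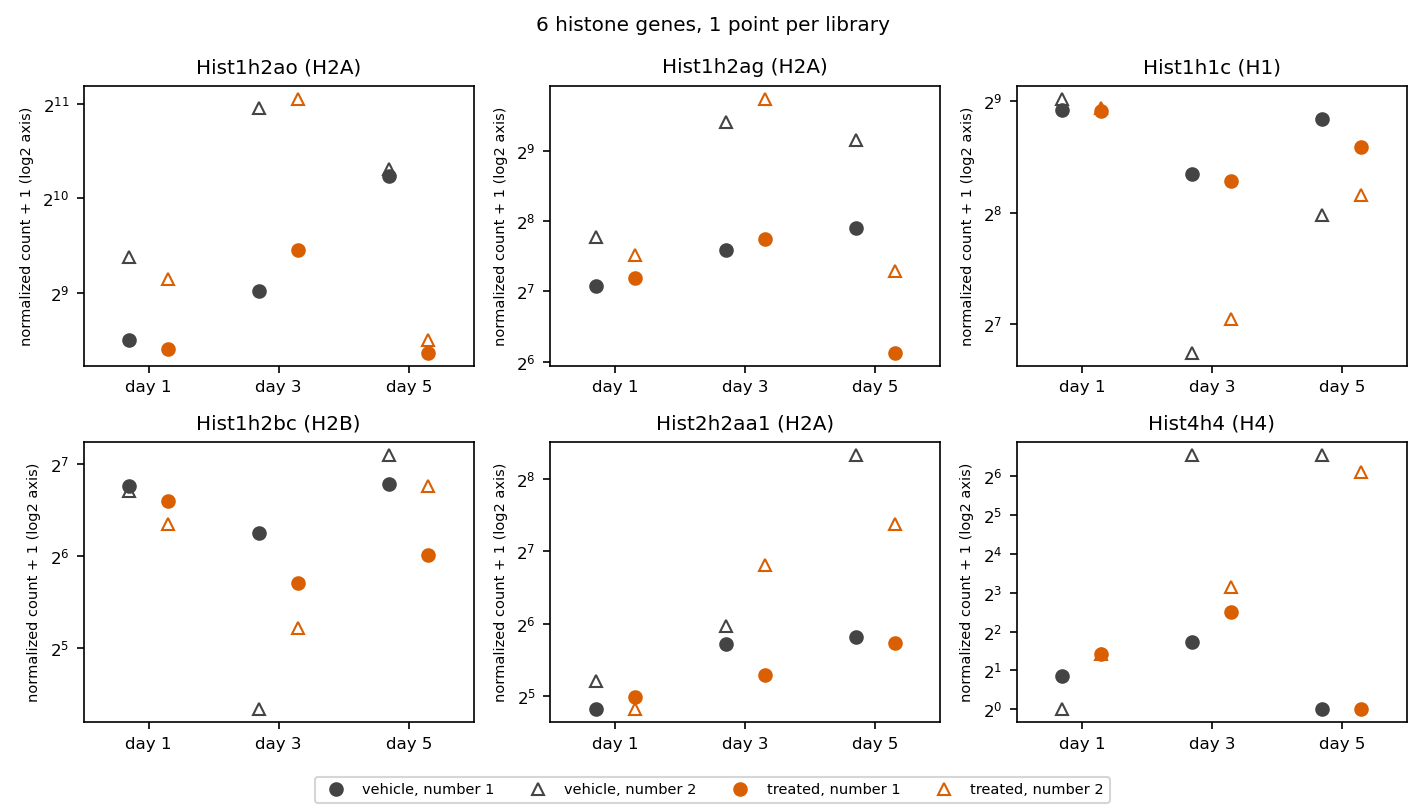
Normalized count + 1 on a log2 axis for 6 histone genes at days 1, 3 and 5, 1 point per library, marked by arm and library number. Hist1h2ao and Hist1h2ag have both treated points of day 5 below both vehicle points, Hist1h1c and Hist2h2aa1 do not, and Hist4h4 is at or near 0 outside the number 2 libraries of days 3 and 5.

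Treatment at day 3 gave no call in any histone gene or in any gene with 12 libraries (limma; 0 histone genes and 43 of all genes at an unadjusted p under 0.05), and no histone gene with 8 libraries (0.116% of all genes) or with the term for library number (0.0272%). The near-identical H2A genes had sums of 1591.7 and 6058.6 in vehicle and 2044.2 and 6720.6 in treated. The treated sum was the higher within each number, by 0.36 and 0.15 on the log2 scale. All-gene medians were -0.01 and 0.46, so the difference in number 2 was below the median of all genes, and with median-of-ratios scaling the median histone gene was at -0.12. Both treated libraries were below both vehicle libraries in 5 histone genes (14.3%), Hist1h2be, Hist1h2bq, Hist1h2br, Hist2h3c1 and Hist2h3c2, against 1.45% of all genes. These are H2B and H3 genes of 3 sequence sets. None was above in both, against 4.46%. A higher value within both numbers was found in 10 (28.6%, 9 of them H2A) against 37.5%, and a lower value in 8 (22.9%) against 10.8%.

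Treatment at day 1, where the 2 libraries of each arm were most alike, gave no call among histone genes in limma with the 4 libraries of that day, against 820 of all genes (5.57%), nor with 8 libraries (5.74%). An unadjusted p under 0.05 was found in 4 of 35 histone genes, against 3677 of all 14715 genes in the same limma fit. The 4 were Hist1h1a at 1.79 (adjusted p = 0.0565), Hist2h2be at -0.44 (adjusted p = 0.0891), Hist2h4 at -2.06 (adjusted p = 0.100) and Hist4h4 at 1.03 (adjusted p = 0.178). Hist1h1a, Hist2h4 and Hist4h4 rest on normalized counts under 8 in all 4 libraries. Other settings did call some of these: limma-voom on the recovered reads called Hist2h2be (-0.44, adjusted p = 0.0310) and Hist2h4 (-2.73, adjusted p = 0.0465), where it called 13.7% of all genes, a pseudocount of 0.5 called Hist1h1a (5.29% of all genes), and a term for library number called Hist1h1a and Hist2h4 (12.1%). The median histone gene was at -0.17 and the median of all genes at -0.04. Both treated libraries were below both vehicle libraries in 10 (28.6%), against 33.4% of all genes, and above in 2 (5.7%), against 21.4%. Within both numbers, 15 were lower (42.9%), against 42.4%, and 4 higher (11.4%), against 27.7%. The sums of the near-identical H2A genes were 1218.6 and 2025.0 in vehicle and 1212.6 and 1669.0 in treated. The spread between the vehicle libraries was wider than the difference between the arms.

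The F test of whether the treatment difference changed over the days called no histone gene and no gene with 12 libraries (limma; 0 histone genes and 3 of all genes at an unadjusted p under 0.05). The fit with 8 libraries keeps a single library per arm at the later days, so its calls are not read for this question.

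Changes over time were asked in each arm against its own day 1. With 12 libraries no histone gene and no gene was called in any of the 4 comparisons (limma). Over all genes an unadjusted p under 0.05 was reached by 288, 207, 168 and 174, and over histone genes by 0, 1, 1 and 1 (vehicle at days 3 and 5, then treated at days 3 and 5). With 8 libraries, Hist1h1c fell at day 3 in vehicle by 0.62 on the log2 scale (SE 0.08, adjusted p = 0.0086) and in treated by 0.64 (SE 0.08, adjusted p = 0.0092). Hist2h2be, an H2B gene known to give polyadenylated mRNA, rose at day 3 by 0.65 in vehicle (adjusted p = 0.0296) and by 0.80 in treated (adjusted p = 0.0175), and Hist1h2bc fell in treated by 0.77 (adjusted p = 0.0429). The rise of Hist2h2be rests on the number 1 library of each arm: the number 2 libraries of day 3 had 69.1 and 69.3, below the 116.3 to 170.6 of day 1, and over 12 libraries its differences were -0.28 and 0.02. Over the settings tried, the vehicle difference ran from -1.22 to 0.73. These were all the histone calls at day 3, 2 in vehicle and 3 in treated, against 19.7% and 20% of all genes. At day 5, vehicle had 2 histone calls, Hist1h4i lower at -1.70 (adjusted p = 0.0320) and Hist2h2aa2 higher at 0.87 (adjusted p = 0.0499), against 29.4% of all genes. Hist1h4i had 5.5 (6 reads) in vehicle number 1 of day 5 and 36.7 in number 2, against 25.0 and 16.2 at day 1, so the library numbers lay on opposite sides of day 1. Its difference ran from -1.70 to 0.84 as libraries were left out.

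Treated cells at day 5 had 12 histone genes lower than at day 1 with 8 libraries and none higher (background 18.1% of all genes lower and 31% called in either direction). They were 8 near-identical H2A genes, from Hist1h2ae at -2.27 (SE 0.27, adjusted p = 0.0048) to Hist1h2an at -1.10 (adjusted p = 0.0288), with Hist1h2ak at -1.39 (adjusted p = 0.0364), Hist1h2be at -1.22 (adjusted p = 0.0310), Hist2h2be at -0.55 (adjusted p = 0.0340) and Hist1h1c at -0.34 (adjusted p = 0.0345). Hist2h2be had 124.4 in treated number 2 of day 5, above both treated libraries of day 1, and its difference ran up to 0.07 as libraries were left out. The 12 came from 5 sequence sets. When any 1 of the 4 day 1 libraries was left out, fewer histone genes and fewer of all genes were called. Without treated library 1 of day 1, not all of the histone calls were lower. The median over all genes was -0.05 and over the histone genes -0.53. Within the 12-library fit the same comparison had medians of -0.49 for all genes and -0.34 for histone genes, and 0.00 and 0.16 with median-of-ratios scaling, so the direction of the median there depended on the scaling. With the term for library number within each day, 12 histone genes were called for vehicle at day 3 (63.6% of all genes), 13 for vehicle at day 5 (51.4%), 17 for treated at day 3 (49%) and 13 for treated at day 5 (41.4%). In those time comparisons the number 2 libraries of days 3 and 5 enter with their different composition, and shares of all genes that large were called.

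The number 2 libraries of days 3 and 5 differed from number 1 in the histone genes as well. While the median of all genes was lower in number 2 (-1.71 in vehicle and -1.20 in treated at day 3, -1.28 and -0.92 at day 5), the median histone gene was higher, by 1.61, 1.41, 1.02 and 0.84 in the same order. H2A medians were 1.91, 1.60, 1.44 and 1.05. Hist1h1c was lower in number 2, and its log2 differences at day 3 minus the all-gene median came to 0.10 in vehicle and -0.04 in treated. Hist1h2bg, an H2B gene, was further down at day 3: it had 19.5 and 0.0 in vehicle and 15.7 and 1.6 in treated, where 3 reads are worth 4.41 and 4.72 in the number 2 libraries. Chi-square per degree of freedom between the libraries of a group was 3.94 and 4.93 at day 1 and 495 to 708 at days 3 and 5.

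Split by annotated transcript length at 1000 bases, a limit chosen after the values were seen, the 20 shorter histone genes had median number 2 minus number 1 differences of 1.85, 1.56, 1.23 and 0.92. The 15 longer ones had 0.38, -0.48, 0.32 and 0.74. Of the longer ones 10, 6, 11 and 13 were higher in number 2: Hist1h1c, Hist1h2bc and Hist2h2be were lower at day 3 in both arms, and Hist1h1d, Hist1h1e and Hist4h4 higher. Among the shorter, 10 are near-identical H2A genes, with medians of 1.95, 1.78, 1.19 and 0.92, and the other 10 had medians of 0.62, 1.01, 1.70 and 1.12. The part of library composition in these differences was not tested.

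**Figure D4:**
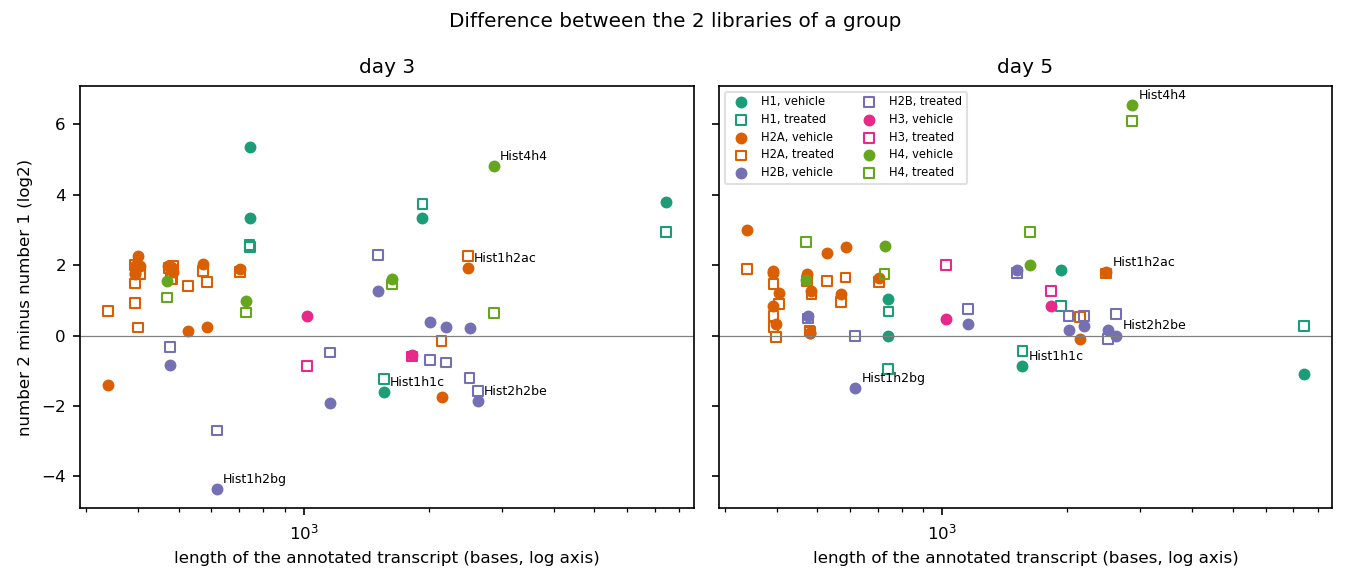
Number 2 minus number 1 (log2) for the 35 histone genes against the length of the annotated transcript (bases, log axis) at days 3 and 5, circles for vehicle and squares for treated. At day 3 the 20 genes under 1000 bases have medians of 1.85 and 1.56, and the 15 longer ones 0.38 and -0.48.

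The replacement histone genes can be expressed outside S phase, and most give ordinary polyadenylated mRNAs. Of 11 listed, 10 were tested. At day 1 H1f0, a linker histone of resting cells, rose by 0.39 (SE 0.06, adjusted p = 0.0270) and Cenpa, the centromeric H3, fell by 0.31 (SE 0.05, adjusted p = 0.0400) in limma with 4 libraries. The share of all tested genes called at day 1 was 5.57%, 2.53% lower. The median of the list was -0.16, beside -0.04 for all genes. At day 3, 5 and 10 of the 10 were higher in treated in numbers 1 and 2. The medians were 0.017 and 0.663, beside -0.006 and 0.456 for all genes. At day 5 with 8 libraries 4 fell: H3f3a (-0.49, adjusted p = 0.0236), H2afz (-0.46, adjusted p = 0.0301), Cenpa (-0.51, adjusted p = 0.0320) and H1f0 (-0.45, adjusted p = 0.0422), where 3.27% of all genes were called lower. No gene of the table was called at day 1 or at day 5 in these fits when any 1 of the 4 day 1 libraries was left out, so all these calls were lost. Those fits have 1 residual degree of freedom, so the loss is not particular to this list. H2afz, the replacement for H2A, had 3707.4 in vehicle and 2697.6 in treated in number 1 of day 5, but 1028.6 and 1250.3 in number 2, where the order was turned. H3f3a (2656.2 and 3307.6) and H1f0 (473.3 and 612.7) were turned there as well, while Cenpa (103.1 and 80.6) kept its order.

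Of 21 factors that transcribe and process these mRNAs, 7 fell and none rose with treatment at day 1, against 2.53% of all genes called lower. The median was -0.21, beside -0.04 for all genes, and 4 and 3 of the 21 were higher in treated in numbers 1 and 2. All 7 calls were lost when any 1 of the 4 libraries was left out. Such a fit has 1 residual degree of freedom and called no gene at all, so the loss is not particular to these factors. Slbp, which binds the stem-loop printed above, had 828.6 and 910.2 in vehicle and 638.5 and 632.2 in treated, a log2 difference of -0.45 (SE 0.06, adjusted p = 0.0273). Npat, the coactivator of histone genes, had 674.8 and 692.1 against 525.1 and 561.2, a difference of -0.33 (SE 0.06, adjusted p = 0.0456). In both the arms did not overlap. Cyclin E genes Ccne1 (-0.68, adjusted p = 0.0150) and Ccne2 (-0.85, adjusted p = 0.0337) and their kinase Cdk2 (-0.36, adjusted p = 0.0285), which activate Npat, fell too. So did Srrt (-0.24) and Eri1 (-0.28), the latter a nuclease that trims histone mRNA ends. At day 3, 13 and 14 of the 21 were higher in treated in numbers 1 and 2. The medians were 0.065 and 0.458, beside -0.006 and 0.456 for all genes. At day 5 none of the 21 was called with 8 libraries. Of 19 histone chaperones and assembly factors, none was called at day 1 (18 lower, median -0.11). At day 3, 15 and 13 of the 19 were higher in treated in numbers 1 and 2 (medians 0.082 and 0.619). Rbbp7 was lower in treated in number 1 of day 5, by a log2 difference of -0.33 with 8 libraries. Its order was turned in number 2 of day 5 (377.2 in vehicle and 412.4 in treated).

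Of 17 S-phase genes, 10 fell at day 1 and none rose, against 2.53% of all genes called lower, with a median of -0.275. The 10 calls were lost without any 1 of the 4 libraries, when no gene of the table was called. Those fits have 1 residual degree of freedom, so the loss is not particular to these genes. Rrm2, a ribonucleotide reductase subunit, had 1903.3 and 1928.2 in vehicle and 1442.0 and 1402.2 in treated, a difference of -0.43 (SE 0.04, adjusted p = 0.0145). Cdc6, which loads the replicative helicase, fell by 0.59 (adjusted p = 0.0202), and the helicase subunit Mcm4 by 0.36 (adjusted p = 0.0204). The others were Mcm3, Mcm5, Mcm7, Pcna, Tyms, Rrm1 and Fen1. At day 3 the S-phase list went the other way. In number 1, 16 of the 17 were higher in treated (median 0.217), beside an all-gene median of -0.006. In number 2, 15 were higher (median 0.624), beside 0.456. None of them was called at day 3 with 12 libraries. At day 5 with 8 libraries 5 fell: Rrm2 (-0.61, adjusted p = 0.0173), Rrm1, Ccna2 (-0.66), Tyms and Mcm6, against 3.27% of all genes called lower, and these were lost in the same way. In that fit the near-identical H2A genes called at day 5 had differences from -1.87 to -1.57, while the S-phase genes called there lay between -0.66 and -0.37. Whether the H2A and S-phase differences differ from each other was not tested. In number 2 of day 5 Rrm2 had 56.5 in vehicle and 69.9 in treated, the reverse order of number 1 (1449.3 and 950.6). Ccna2 and Mcm6 were also reversed there, while Tyms (137.1 and 67.5) and Rrm1 (149.8 and 122.1) kept their order. Over all 17 S-phase genes 10 were lower and 7 higher in number 2 (median -0.05), beside an all-gene median of 0.23. The H2A sum kept its order there. All these lists share their control libraries with the histone comparisons.

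**Figure D5:**
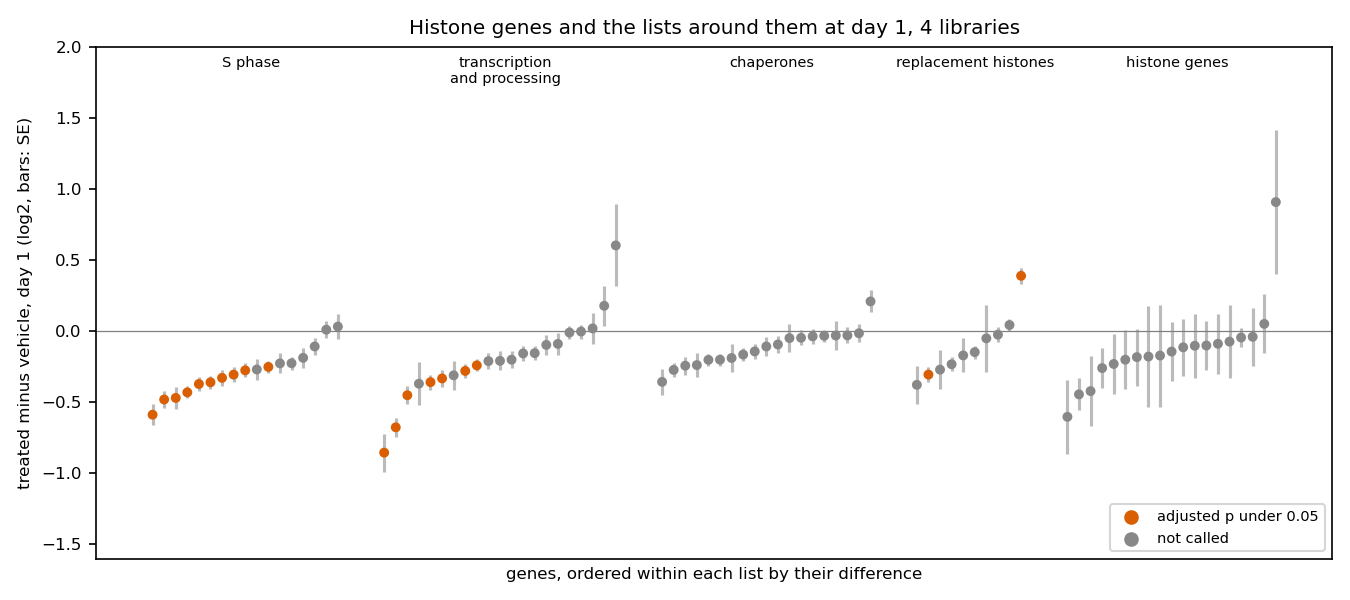
Treated minus vehicle at day 1 (log2, bars: SE) for the 19 histone genes with a group mean of at least 50 and for the replacement histone, transcription and processing, chaperone and S-phase lists, ordered within each list. Of the S-phase genes 10 of 17 fell and of the transcription and processing factors 7 of 21, while no histone gene was called.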

How the data were processed

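The deposited table holds log2 values per gene and library, per the file headers. The authors used TopHat2, SAMtools, DESeq2 and build mm9, per the submitters' processing notes; for versions, annotation, strand and multiply mapped reads nothing is given in the sources used here. The values show an offset: 8 was added to the normalized count before the logarithm. After removing 8, every positive value was a whole multiple of 1 unit per library (tolerance 0.02), which gave reads. Precision rests on these reads, and limits from them cover counting error only.

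Repeated identifiers were merged. Symbols in the file were often shared by several copies, so genes were named from the identifier through GENCODE. Of the 61, 3 are named by the file only. Transcript sequences were read from GRCm38, not the authors' build, for the 59 genes that had one there. The Entrez column was not used, since it does not follow the identifiers, and 6 histone genes without a symbol in the file (Hist1h2aj, Hist1h3d, Hist1h3f, Hist1h3g, Hist1h3h and Hist1h3i) were left out. Values log2(normalized count + 1) were fitted with limma 3.58.1 (R 4.3.3), trended prior, genes with a group mean of at least 10, Benjamini-Hochberg adjustment, adjusted p under 0.05 as a call. Day 1 used its 4 libraries and the other comparisons all 12. Fold changes on this scale understate those of low genes. The fits were also run on simulated counts. For day 5 these gave the number 2 libraries of both arms the same shift per gene, while in the data the deviations correlated at 0.897. The simulation therefore does not show how the fits perform on these libraries.

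Histone genes with a group mean of at least 50, and those called in either fit, are named with values; the rest are given by counts. Members and lists were chosen with earlier results of these data known. A further gene of the S-phase list is not reported here. Alternatives were the 8-library fit, library number as a term, each library left out, no filter, quantile and median-of-ratios scaling, pseudocounts of 0.5 and 5, limma-voom on the recovered reads, and other library sets.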

Additional observations from a re-analysis of the deposited data

Results flagged for a closer look

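The treatment difference at day 5 went against that at day 3 in 8 near-identical H2A genes: within both library numbers treated was above vehicle at day 3 and below it at day 5. Day 5 minus day 3 was -1.91 for Hist1h2ab, -2.03 for Hist1h2ad, -2.07 for Hist1h2ae, -2.06 for Hist1h2ag, -2.0 for Hist1h2ah, -1.97 for Hist1h2ai, -2.11 for Hist1h2ao and -2.12 for Hist1h2ap (log2). The limma F test of a difference between days gave an adjusted p of 1 for each, with unadjusted values from 0.174 for Hist1h2ap to 0.388 for Hist1h2ab. With a term for library number within each day the adjusted p was 0.209 for Hist1h2ao and Hist1h2ap and up to 0.927 for the others. Relative to the median of all genes the 8 were below it in number 2 of day 3 (-0.36 to -0.13), and with median-of-ratios scaling their day 3 differences over both numbers were -0.01 to 0.04, so the sign at day 3 depends on the scaling. All 8 belong to 1 set of near-identical sequence, so they are given as 1 pattern.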

How the results depend on the processing

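Counts of called histone genes were 0 in each comparison with the settings described first. Leaving out each library of the 12-library and day 1 fits in turn gave 0 to 0 in each treatment and time comparison. At day 1, limma-voom on recovered reads called 2, a pseudocount of 0.5 called 1. The 8-library fit called 6 for treatment at day 5, 2 for vehicle day 3, 2 for vehicle day 5, 3 for treated day 3 and 12 for treated day 5. Leaving out a day 1 library of it gave fewer calls in each of these comparisons, among histone genes and among all genes. This keeps 1 residual degree of freedom and assumes that lone libraries vary like the others. Median-of-ratios scaling, chosen after seeing the data, called 0. Single named members changed sign under 18 of 396 alternatives at day 5 (8 of 22 members), 80 of 396 at day 3 and 39 of 374 at day 1. The causes were not tested.

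Same-numbered libraries deviated together at days 3 and 5 (correlation 0.899 and 0.897) but not at day 1 (0.07), and the labels do not tie them. The fits described first therefore carry no term for the number, which at days 3 and 5 leaves a large shared deviation in their error. The replicate block as 1 term called 2 histone genes at day 1. As a replicate block within each day it called 4 for treatment at day 5 (Hist1h2ac, Hist1h2ag, Hist1h2ao and Hist1h2ap, adjusted p = 0.0137 to 0.0498, all the genes called lower among 17 called), 12 for vehicle day 3, 13 for vehicle day 5, 17 for treated day 3 and 13 for treated day 5.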
